A study of Homo sapiens with 2 samples.

Results

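The HLA class II pathway genes considered here are 10 listed genes: HLA-DMA, HLA-DMB, HLA-DRA, HLA-DPA1, HLA-DPB1, HLA-DOA, HLA-DOB, CD74, CIITA and RFX5. A gene was taken from the transcript clusters, the array's unit for a gene, whose platform annotation gives a single gene symbol, and the cluster with the highest mean of both arrays stood for the gene. By this rule 8 of the 10 genes had a value, out of 18417 genes in all. HLA-DRA and CD74 had none, because each of their clusters also carries the symbol of another gene. The genes were measured on 2 Affymetrix Human Gene 1.0 ST arrays of ACHN cells, a human kidney cancer line in long use, which the labels call clear cell renal carcinoma. One array held cDNA of cells transfected with an shRNA against Kindlin-2, the integrin adaptor encoded by FERMT2, and the other held cDNA of cells transfected with a control shRNA. Both cultures grew in minimum essential medium with 10% FBS and 400 µg/ml of G418, a drug that kills untransfected cells. No cytokine is named in the labels, and they do not say whether a culture was 1 clone or a pool. With 1 array per group (n = 1) there was no replicate check, so no p-value or standard error is given, and every difference describes these 2 arrays.

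MHC class II molecules are pairs of an alpha and a beta chain that present peptides from endosomes to CD4+ T cells. The chains HLA-DR, HLA-DP and HLA-DQ reach the peptide loading compartment bound to the invariant chain CD74, which cathepsins cut down to the fragment CLIP. HLA-DM then exchanges CLIP for peptide, and HLA-DO inhibits HLA-DM. The genes are read in professional antigen presenting cells and, after interferon gamma, in many epithelia, kidney tubule cells included. Their promoters share an X box, bound by the RFX complex and CREB, and a Y box, bound by NF-Y, on which the coactivator CIITA assembles.

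The promoters are shown because class II genes are known for these elements, so that the letters of the HLA-DM chains, which differed most here, can be read beside those of HLA-DP. The RefSeq promoter table (GRCh38.p14) was matched by symbol for 8 of the 10 genes, all but HLA-DRA and CIITA. The following 4 sequences are the 250 bases before the annotated start of the chains of HLA-DM and HLA-DP, each 5′ to 3′ on its gene's strand, and for HLA-DPA1 the second of its windows. Capitals mark letters that match CCNAGNNAC (the start of an X box), CTGATGATG (the end of an X box) or ATTGG (the core of a Y box) on either strand. These letters were chosen after the windows had been read.
HLA-DMA, chr6:32953098-32953347, - strand: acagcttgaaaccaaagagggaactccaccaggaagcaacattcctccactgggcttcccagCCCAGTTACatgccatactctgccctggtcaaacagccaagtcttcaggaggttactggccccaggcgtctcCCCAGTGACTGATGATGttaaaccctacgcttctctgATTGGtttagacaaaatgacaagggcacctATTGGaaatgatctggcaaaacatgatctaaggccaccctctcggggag
HLA-DMB, chr6:32941029-32941278, - strand: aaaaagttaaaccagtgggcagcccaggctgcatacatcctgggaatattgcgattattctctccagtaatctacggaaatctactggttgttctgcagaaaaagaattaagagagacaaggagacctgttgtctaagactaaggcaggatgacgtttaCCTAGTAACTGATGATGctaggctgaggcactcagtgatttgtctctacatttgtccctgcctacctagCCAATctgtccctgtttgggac
HLA-DPA1, chr6:33073650-33073899, - strand: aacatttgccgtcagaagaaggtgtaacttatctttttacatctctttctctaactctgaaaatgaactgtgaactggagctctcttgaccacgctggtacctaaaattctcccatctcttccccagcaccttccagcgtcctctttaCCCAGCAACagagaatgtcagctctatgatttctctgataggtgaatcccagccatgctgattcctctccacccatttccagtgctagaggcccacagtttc
HLA-DPB1, chr6:33075740-33075989, + strand: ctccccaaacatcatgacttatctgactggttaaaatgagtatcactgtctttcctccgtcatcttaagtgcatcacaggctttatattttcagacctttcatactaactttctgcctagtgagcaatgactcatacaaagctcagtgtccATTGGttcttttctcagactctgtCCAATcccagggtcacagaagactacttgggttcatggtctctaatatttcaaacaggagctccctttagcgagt

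In both HLA-DM promoters the letters CCNAGNNAC and CTGATGATG overlapped by 1 base and formed a single run, starting 116 bases before the start of HLA-DMA and 91 bases before that of HLA-DMB. In HLA-DMA an ATTGG followed on the same strand, 37 bases after the first letter of that run, and HLA-DOA had the same distance of 37 bases. In HLA-DMB the only match to the Y box core was CCAAT, its other strand, 22 bases before the start. The windows of HLA-DOB and HLA-DPB1 held ATTGG at 98 and 99 bases before the start, and that of HLA-DPA1 held none. Over all 35116 promoter windows of 300 bases, CTGATGATG was found on either strand in 0.271%, CCNAGNNAC in 16.5% and ATTGG in 34.6%. An X box match followed by ATTGG at 15 to 45 bases on the gene's strand was found in 0.222% of windows. Among the 11 windows of the 8 genes it was found for 3 genes, HLA-DMA, HLA-DOA and HLA-DOB. The letters were chosen after these windows had been read, so the 3 genes beside the 0.222% are no test. HLA-DMA thus held an X box match followed by ATTGG and HLA-DMB did not, so the matches differed within HLA-DM as well as from HLA-DP. Lack of these exact letters does not show that a window lacks the element. Whether these letters bear on the array values was not tested. These are matches of letters, and binding was not measured.

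FERMT2 (cluster 7979204), the gene targeted by the shRNA, read 8.26 on the log2 scale in the Kindlin-2 shRNA array and 9.37 in the control array, 46.4% of the control level. The median over all clusters was 6.53 and 6.51, and that of the log2 difference over all genes was -0.01. A value is called dim when it lies under 6.52, the median over all clusters and both arrays. A called gene is one that differed by at least 1.5-fold between the arrays. The renal transcription factor PAX8 (11.29 and 11.43) and the epithelial keratin KRT8 (12.11 and 12.65) were far above the median on both arrays. Of 14 measured markers of renal epithelium and of ACHN cells none was dim on both arrays, and the median log2 difference was -0.19. Of the 14, 2 were called lower and 2 higher, where 3.81% of all genes were called lower and 3.77% higher. The cadherin CDH16 was 1.78-fold lower (6.26, which is dim, and 7.10) and the renal transcription factor PAX2 1.58-fold lower. The cadherin CDH6 was 1.88-fold higher, from a dim control value (7.32 and 6.41), and the carbonic anhydrase CA12 1.67-fold higher.

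Both chains of HLA-DM were lower in the Kindlin-2 shRNA array, and they were the only ones of the 8 measured genes past 1.5-fold. HLA-DP was lower by less, and HLA-DO was dim or nearly so. The regulators CIITA, which was dim, and RFX5 had almost the same value on both arrays. Thus 2 of 8 genes were called lower and none higher, against 3.81% of all 18417 genes called lower and 3.77% called higher. At 2-fold none of the 8 was called in either direction, where 0.896% of all genes were lower and 1.01% higher. Among the 11822 genes with at least 1 value that was not dim, 5.23% were called lower. The median log2 difference of the 8 genes was -0.25, with 7 of them below 0, where 52.0% of all genes were below 0. Among those 7, HLA-DOB and RFX5 each differed by only -0.02. The members had been listed with earlier results of these data known, so these counts describe them only.

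HLA-DMA encodes the alpha chain of the peptide exchange factor. Its cluster 8178884 read 7.19 on the log2 scale in the Kindlin-2 shRNA array and 8.07 in the control array, a difference of -0.87, or 1.83-fold lower (54.6% of control). Of all genes, 231 had a lower difference. Among the 1841 genes of like brightness, the tenth of genes by mean value that holds it, 32 had a lower difference. The other clusters of HLA-DMA gave differences between -0.89 and -0.87, and 2 of the 3 carried the same values to the last digit, so they are no separate measurements.

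HLA-DMB encodes the beta chain that pairs with it. Its cluster 8125530 read 7.37 in the Kindlin-2 shRNA array and 8.14 in the control array on the log2 scale, a difference of -0.77, or 1.70-fold lower (58.7% of control). In all, 331 genes lay further down, and 47 of the 1842 genes of like brightness did. Its second cluster differed by -0.81. The subunits of HLA-DM were therefore lower by similar amounts, and neither was dim on either array.

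HLA-DPA1, the alpha chain of the peptide-presenting HLA-DP, had log2 values of 8.33 in the Kindlin-2 shRNA array and 8.81 in the control array, a difference of -0.48 (1.39-fold lower). Its partner HLA-DPB1 had 8.55 and 8.83 in the same order, a difference of -0.28 (1.22-fold lower). Neither reached 1.5-fold, and 6.01% and 15.1% of all genes had lower differences than these. The 3 clusters of HLA-DPA1 ranged from -0.48 to -0.43, and clusters 8125556 and 8178891 carried the same values to the last digit. The 3 of HLA-DPB1 gave one and the same difference at 3 levels. Such repeats are no separate measurements. The chains of HLA-DP were thus above the median of the table on both arrays, but their differences were within the range taken by many other genes.

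The chains of HLA-DO, the inhibitor of HLA-DM, gave smaller differences. HLA-DOA had 6.57 in the Kindlin-2 shRNA array and 6.78 in the control array, a log2 difference of -0.21 that was -0.06 in its other cluster, where both values were dim. HLA-DOB was dim on both arrays, with 5.19 and 5.22 and a difference of -0.02. The table carries no detection call, so a dim value cannot be told from an absent transcript.

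CIITA, the coactivator that sets class II transcription, was also dim, at 6.45 in the Kindlin-2 shRNA array and 6.43 in the control array, a log2 difference of 0.02. RFX5, the RFX subunit that binds the X box, had 9.56 and 9.57, a difference of -0.02. About as many genes lay below these 2 differences as above them: 55.3% of all genes had a lower difference than CIITA and 49.7% a lower one than RFX5. RFX5 therefore did not share the lower values of the HLA-DM chains on these arrays. CIITA was dim, so its values cannot show whether its transcript differed.

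**Figure D1:**
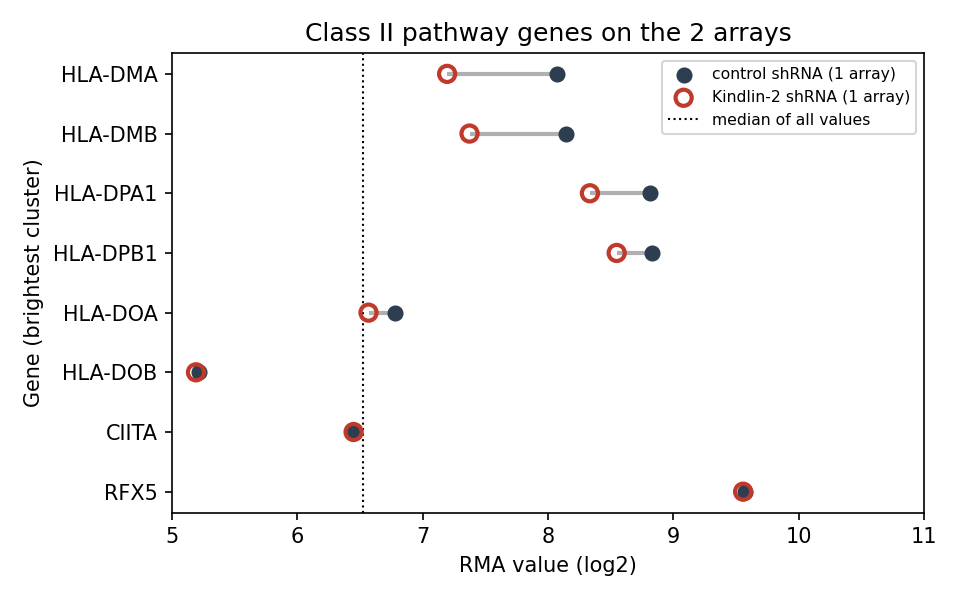
RMA values on the log2 scale (horizontal axis) of the 8 measured class II pathway genes (vertical axis), with 1 filled point for the control shRNA array and 1 open point for the Kindlin-2 shRNA array. The points of HLA-DMA and HLA-DMB differ by -0.87 and -0.77, whereas those of CIITA and RFX5 overlap. The dotted line at 6.52 is the level under which a value is called dim.

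The plot of difference against mean value sets the 8 genes among all others. HLA-DMA and HLA-DMB lay past the 1.5-fold line, and the other 6 lay inside it. The genes whose 2 log2 values were nearest those of HLA-DMA (Euclidean distance over 2 arrays) were TM7SF2, ALAD and HOXD8, at distances of 0.048, 0.052 and 0.057. They lie on chromosomes 11, 9 and 2, and with 2 arrays such likeness says only that both values were close.

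**Figure D2:**
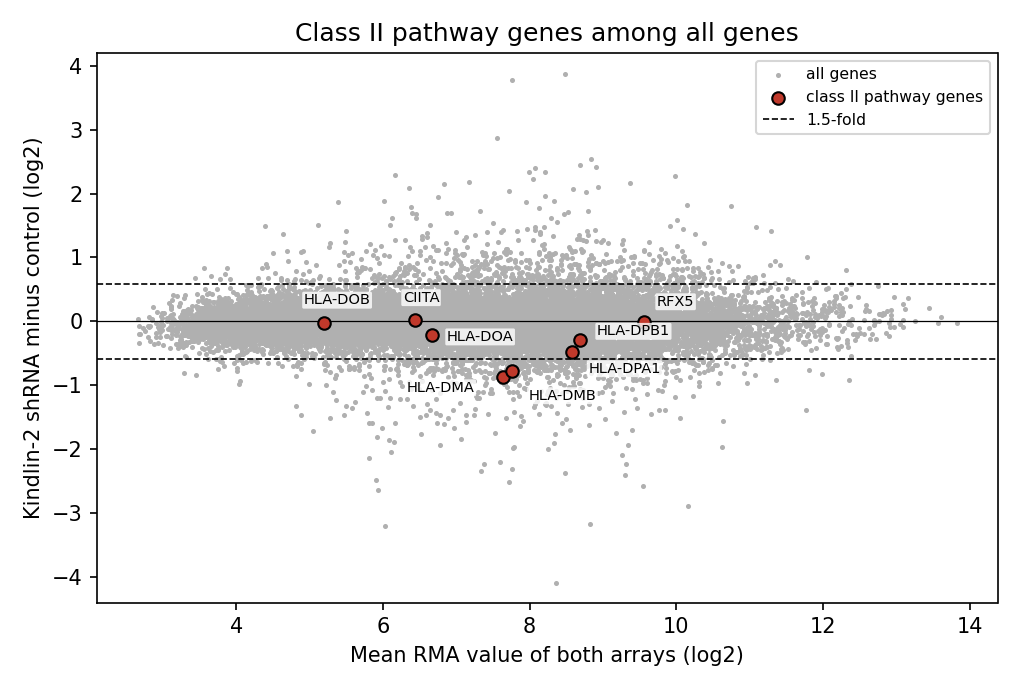
Log2 difference, Kindlin-2 shRNA minus control (vertical axis), against the mean log2 RMA value of both arrays (horizontal axis) for 18417 genes in grey and the 8 measured class II pathway genes in red. Dashed lines mark 1.5-fold; HLA-DMA (-0.87) and HLA-DMB (-0.77) are the members below the lower one.

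Of the 8 other class II chains listed, 3 had a cluster of their own, and all were dim. HLA-DRB5 had 4.70 in the Kindlin-2 shRNA array and 4.49 in the control array, a log2 difference of 0.21. HLA-DQA1 differed by -0.11 (4.68 and 4.79) and HLA-DQB1 by -0.12 (3.80 and 3.92). Lower values like those of HLA-DM were thus not seen in these DR and DQ clusters, which were at the dim end of the table on both arrays. Class II chains are near copies of each other and vary between alleles, so the value of any one chain may include signal from another.

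The class II region of chromosome 6 had lower values beyond the class II genes. In RefSeq gene order all 10 measured genes within 5 places of HLA-DMA were below 0, as were 52.0% of all genes. Of the 10, 2 were called lower, HLA-DMB and the peptide transporter subunit TAP1, where 3.81% of all genes were called lower. TAP1 (cluster 8125512) had 8.59 and 9.30, a log2 difference of -0.70. The immunoproteasome subunits PSMB9 and PSMB8 differed by -0.43 and -0.35, TAP2 by -0.15, the chromatin reader BRD2 by -0.38 and the pseudogene HLA-DPB2 by -0.15. The remaining 4 of the 10 are HLA-DMB, HLA-DOA, HLA-DPA1 and HLA-DPB1.

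Of the 50 nearest genes that belong to no antigen presentation list, 38 were below 0 and 12 above, where 52.0% of all genes were below 0, with a median log2 difference of -0.13, or -0.17 when genes dim on both arrays were passed over. The median over all 977 measured genes of chromosome 6 was -0.03. Of these 50 neighbours, 5 were called lower and none higher, where 3.81% of all genes were called lower, and none lay below HLA-DMB. The 5, named after their values were seen, were DDAH2 (-0.76), NEU1 (-0.68), SLC44A4 (-0.68), EHMT2 (-0.60) and WHR1 (-0.59). A second set of 50 nearest genes, taken for each gene in turn and leaving out only the 10 listed genes, holds TAP1, PSMB8 and PSMB9 too, and its median was -0.15 around HLA-DMA and HLA-DMB. With the median of this set subtracted, HLA-DMA differed by -0.72 and HLA-DMB by -0.62, both still past 1.5-fold. HLA-DPB1 then differed by -0.14, HLA-DOA by -0.06 and HLA-DOB by 0.13, which turned its direction, and the median of the 8 genes was -0.10. The 6 measured members on chromosome 6 had a median of -0.38, and CIITA and RFX5, on chromosomes 16 and 1, a median of -0.00011. What part the region has in the values of its members was not tested.

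**Figure D3:**
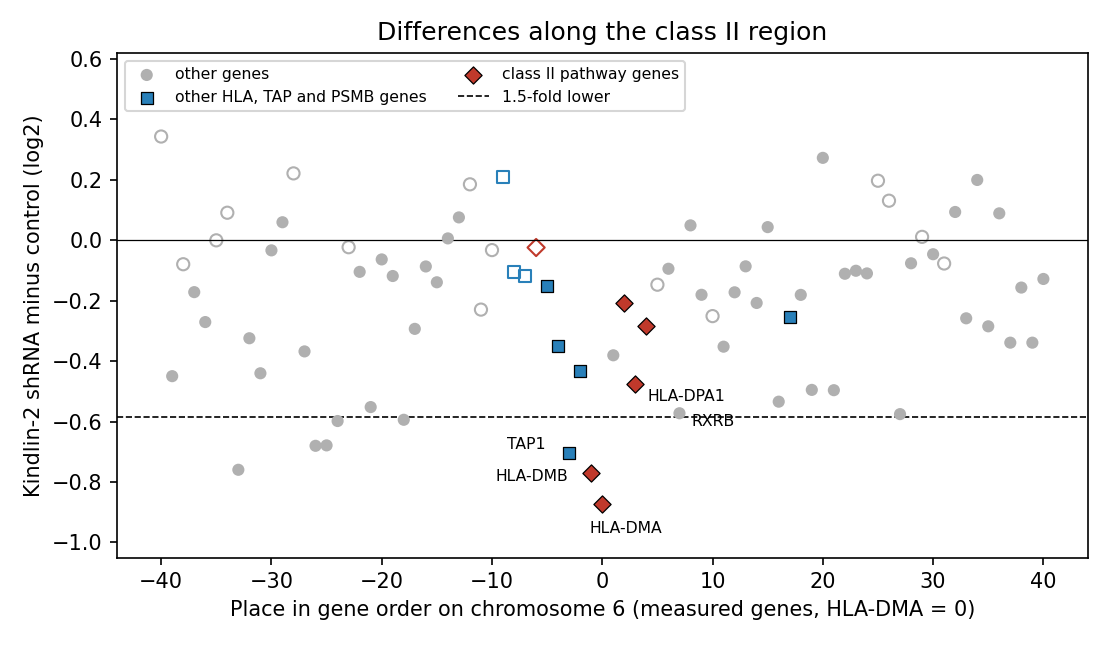
Log2 difference, Kindlin-2 shRNA minus control (vertical axis), of measured genes in RefSeq order on chromosome 6, counted from HLA-DMA at 0 (horizontal axis). Diamonds are class II pathway genes, squares other antigen presentation genes and circles all other genes, with open symbols for genes dim on both arrays; 8 genes lie below the dashed 1.5-fold line, HLA-DMA, HLA-DMB, TAP1 and, among the circles, DDAH2, NEU1, SLC44A4, EHMT2 and WHR1.

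Other steps of the class II pathway were described from lists of genes. Of 13 genes listed as factors of class II transcription, none was called in either direction, where 3.81% of all genes were called lower and 3.77% higher. The median log2 difference of the 13 was -0.03. The RFX subunit RFXANK differed by -0.26, its partner RFXAP, dim, by 0.29, and the NF-Y subunit NFYB by -0.37. Of 15 measured proteases and other factors of peptide loading, 4 were called higher and none lower, where 3.77% of all genes were called higher, and the other 11 stayed within 1.5-fold. Their median was 0.28, beside the -0.01 of all genes. The asparaginyl endopeptidase LGMN, which acts in endosomes and lysosomes, had 9.36 in the Kindlin-2 shRNA array and 8.08 in the control array and was 2.42-fold higher. The cathepsins CTSB and CTSV were 1.74-fold and 1.68-fold higher, CTSV from a dim control value (6.17). ERAP1, listed here although it trims peptides for class I in the endoplasmic reticulum, was 1.51-fold higher. Cathepsin S (CTSS), the protease that cuts the invariant chain in antigen presenting cells, was dim and differed by 0.33, and the lysosomal thiol reductase IFI30 differed by -0.02. The genes called higher therefore did not include CTSS or IFI30.

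Of 7 measured genes for class II turnover and the partners of CD74, none was called. The ubiquitin ligase MARCHF1, which removes class II from the surface, differed by -0.20 and was dim, and CD44, which signals together with CD74, differed by 0.52. Of 18 measured genes of interferon gamma signalling, 12 were below 0, 1 was called lower and 1 higher, and the median was -0.13. Of all genes, 52.0% were below 0, 3.81% were called lower and 3.77% higher. The feedback inhibitor SOCS3 was 1.61-fold lower, and CD274, the checkpoint ligand PD-L1, was 1.63-fold higher although dim on both arrays. The transcription factor IRF1 had 7.99 in the Kindlin-2 shRNA array and 8.36 in the control array, a log2 difference of -0.37, and the receptor chain IFNGR2 differed by -0.43. Most genes of this list thus stayed within 1.5-fold, as the HLA-DP chains did.

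Of 10 measured genes of class I presentation, TAP1 was called lower and the chaperone CALR, 1.93-fold higher, was called higher. Of all genes, 3.81% were called lower and 3.77% higher. The median of the 10 class I genes was -0.20. NLRC5, the class I counterpart of CIITA, differed by -0.41 and the light chain B2M by 0.10. Of 12 costimulatory and adhesion genes 4 were called higher and none lower, where 3.77% of all genes were called higher, and their median was 0.23, beside the -0.01 of all genes. The receptor CD40 was 1.78-fold higher, CD274 is in this list too, the ligand ICOSLG was 1.62-fold higher, and TNFSF9, the ligand of 4-1BB, differed by 0.59 on the log2 scale. The other 8 stayed within 1.5-fold.

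**Figure D4:**
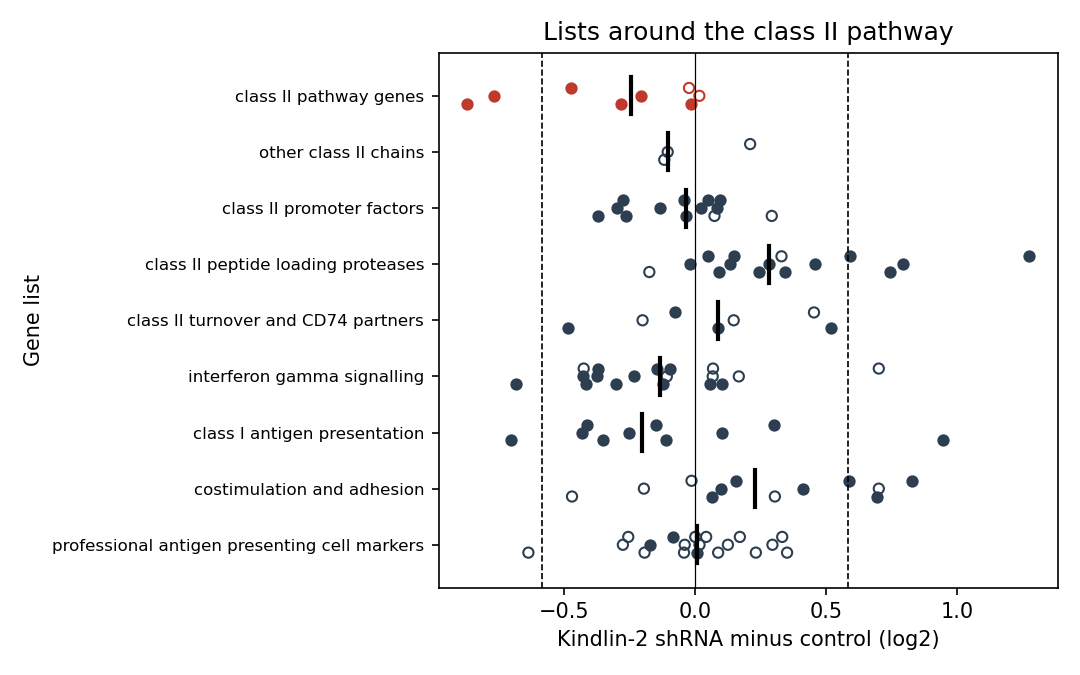
Log2 difference, Kindlin-2 shRNA minus control (horizontal axis), of the measured genes of 9 lists (vertical axis), 1 point per gene, open where the gene was dim on both arrays. Black bars are list medians (-0.25 for the class II pathway genes and 0.28 for the list of peptide loading proteases and other factors), and dashed lines mark 1.5-fold.

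Most markers of other cells that carry class II were dim on both arrays. Of 19 measured markers of professional antigen presenting cells, 3 were not dim, and the summed log2 value of all 19 was 101.7 on each array. These 3 were TYROBP (7.53 in the Kindlin-2 shRNA array and 7.62 in the control array), SPI1 (6.96 and 7.14) and CD79B (6.55 and 6.55). The pan-leukocyte marker PTPRC had 3.54 in the Kindlin-2 shRNA array and 3.53 in the control array, the B cell marker MS4A1 4.68 and 4.94, and the monocyte marker CD14 6.04 and 6.23. FCGR3A, dim on both arrays, was the only one of the 19 called, 1.56-fold lower, where 3.81% of all genes were called lower. Of 8 markers of T and NK cells 2 were not dim, NKG7 (7.02 and 7.31) and CD8A (6.76 and 6.76). The median difference of the 8 was 0. The 6 endothelial markers were all dim, with a median of -0.17. Fewer cells with a transcript and less of it per cell cannot be told apart in such bulk RNA.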

How the data were processed

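RNA from 2 ACHN cultures, 1 per shRNA (6 µg of total RNA each), was measured on Affymetrix Human Gene 1.0 ST arrays. Per the submitters' processing notes, the authors used RMA (background correction, normalisation, probe summary) and Affymetrix Expression Console 1.4.1. The deposited values were taken as log2, from their range. The set of arrays normalised together is not stated in the labels. RMA draws dim values together, so differences between dim values tend to come out too small.

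Of 33297 transcript clusters, 19460 had 1 gene symbol, 1754 several and 12083 none. Symbols were updated by Entrez ID to RefSeq (GRCh38.p14), which served for names, gene order and promoters. Differences are Kindlin-2 shRNA minus control. Python 3.11.15, pandas 2.3.3 and statsmodels 0.14.6 were used, and the counting was tested on simulated data. With 1 array per group no test was possible, and the number of arrays limits the precision. Genes named were the members, FERMT2, the other class II chains, neighbours within 5 places of HLA-DMA and HLA-DMB, the 3 genes nearest HLA-DMA in value and, per list, up to 3 genes per direction past 1.5-fold. Others, given for context, were chosen after their values were seen. The members and lists were chosen with earlier results of these data known. Alternatives were other fold thresholds, loess (span 0.3), median and quantile corrections, cluster means, filters on dim genes, and chromosome or neighbour medians.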

Additional observations from a re-analysis of the deposited data

How the results depend on the processing

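HLA-DMA stayed between -0.88 and -0.72 and HLA-DMB between -0.79 and -0.62 on the log2 scale under all 6 corrections of the values, so the count of 2 genes at least 1.5-fold lower did not change with them. The count was 0 at 2-fold and 3 at the lowest threshold tried, where HLA-DPA1 joined and where 12.6% of all genes were lower. With genes dim on both arrays left out, 6 of the 8 measured genes remained, and their median was -0.38. Leaving out genes of dim mean kept the same 6, so it is no separate check. With the median of the 50 nearest genes subtracted, the median of the 8 was -0.10. Over its 9 alternatives the median of the measured genes stayed below 0. FERMT2 ranged from -1.19 to -1.08. The median of the chromosome 6 neighbours ranged from -0.17 to -0.11 over 3 alternatives. Of the other members, HLA-DOB and CIITA, both dim, had values on either side of 0. No sample could be left out, since each group held 1 array, and no paired analysis was possible because no group had a second array.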

Other observations

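Clusters listed under several gene symbols belonged to no gene above and are given as clusters only. The cluster listed under CD74 and ROS1 (8115147) had a log2 value of 9.35 in the Kindlin-2 shRNA array and 9.58 in the control array, a difference of -0.23. The 3 clusters listed under HLA-DRA and HLA-DQA1 had values from 4.49 to 4.80 in the Kindlin-2 shRNA array and between 4.51 and 4.89 in the control array, and their differences lay between -0.09 and -0.02. In all, 15 clusters listed under several class II chains were dim on both arrays. Some of the 15 repeat the values or the difference of another, so they are not 15 separate measurements. Their differences ran from -0.13 to 0.46. The highest, 8178802, is listed under 6 symbols, all of DRB chains but for HLA-DQB1, and read 6.01 in the Kindlin-2 shRNA array and 5.55 in the control array.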
